A study of Mus musculus with 34 samples.

Results

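The genes described here are 38 genes of the folding, quality control and entry machinery of the endoplasmic reticulum (ER), measured in mouse liver tumors driven by c-Myc or by TGFα and c-Myc, in livers in which the transgene had been switched off, and in control livers. They were chosen by name: 9 chaperones and co-chaperones, 6 disulfide and prolyl isomerases, 2 lectin chaperones, 3 stress sensors or transcription factors, 7 genes of ER-associated degradation, 3 translocon subunits, 4 subunits of the translocon-associated protein (TRAP) complex, 3 subunits of the signal peptidase and 1 subunit of the oligosaccharyltransferase. Of these, 35 were found by the gene name on the array and 3 (Dnajc3, Manf and Ostc) by the transcript accession of the probe, so that all 38 were among the 21958 genes tested.

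Proteins bound for secretion enter the ER through the Sec61 channel, lose their signal peptide to the signal peptidase, receive N-linked sugars from the oligosaccharyltransferase, and fold with the help of chaperones and disulfide isomerases. Misfolded proteins are pulled back out and degraded, and an excess of them sets off the unfolded protein response, in which the sensor Ern1 (IRE1α) activates Xbp1 by splicing and Atf6 is released by cleavage to switch on chaperone genes. Hepatocytes secrete most plasma proteins and are rich in this machinery.

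Samples were liver tumors of mice carrying TGFα and c-Myc transgenes (TGFα/Myc, 3 tumors), a Myc transgene (7 tumors) or a TGFα transgene (3 tumors), livers of each of these genotypes after the transgene had been off for 4 weeks or for 12 weeks (3 livers each), and 3 control livers without a transgene. The off livers had been on doxycycline for 4 or 12 weeks and the tumors and controls for 0 weeks. The labels give neither the promoter of the transgenes nor the age, sex or strain of these mice, and they do not say whether the off livers held regressed tumor. Each sample was labeled in Cy3 and hybridized with a Cy5-labeled pool of liver RNA from C57BL/6 mice of mixed gender, and every level below is log2 of sample over that reference. In whole tissue, fewer cells of a type and less RNA per cell cannot be told apart.

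Of the 34 arrays, 3 (TGFα tumors 2 and 3 and the TGFα off 4 weeks liver 1) had a different reference channel, in which hepatocyte markers stood at percentiles 66.9 to 80.0 of all probes against 99.5 to 99.9 on the other 31 arrays, and intestinal markers at 98.7 to 98.9 against 49.2 to 67.5. Their sample channel differed too. There the median log2 signal of hepatocyte markers was 8.27 to 10.98, against 14.04 to 16.07 on the other 31 arrays. That of intestinal markers was 11.98 to 14.36, against 6.94 to 8.97. The labels call these samples liver or liver tumor, and their tissue was not tested. These 3 arrays were left out of all tests. Between 43.6% and 71.8% of probes were well above background on each array, and every probe used for the 38 genes was so on every array. At a Myc probe that stood between -1.07 and 0.17 in controls, 6 of 7 Myc tumors lay between 2.50 and 6.25, but Myc tumor 5 at 1.04. TGFα/Myc tumors 1 and 2 read 4.65 and 5.48 there, TGFα/Myc tumor 3 only 0.83, and TGFα tumor 1 read 3.28 although its label names no Myc transgene. Myc tumors 2 to 7 were read on a scanner and on days that no other group shared, so for those 6 tumors the tumor and the scan cannot be told apart. Results are therefore also given within the single scan day that held Myc tumor 1 and a control. Levels of hepatocyte markers differed too: their median over 9 genes lay between -0.49 and 0.90 in TGFα/Myc tumors, between -2.08 and 0.05 in Myc tumors and between -0.29 and 0.53 in controls. B and plasma cell markers, of cells that are also rich in ER, had array medians of at most 0.07 in TGFα/Myc tumors, 0.38 in Myc tumors and 0.40 in controls.

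The sequences shown first are matches to a promoter element known from genes of this machinery, the ER stress response element (ERSE), the site through which cleaved ATF6, together with NF-Y, is known to act. It was searched as CCAAT, any 9 bases and CCACG, on both strands, in the 250 bases before and 50 bases after the annotated start (RefSeq, GRCm38.p6). A window was given for 30 of the 38 genes, and 9 of these 30 held the element, against 0.137% of all 27025 genes. Each match is written 5′ to 3′ along the strand on which it reads CCAAT first, with the fixed letters in capitals.
Hspa5, chr2:34772025-34772043, starting 65 bases upstream: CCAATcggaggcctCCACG
Hsp90b1, chr10:86705638-86705656, starting 212 bases upstream: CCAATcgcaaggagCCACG
Hsp90b1, chr10:86705533-86705551, on the strand opposite to the gene, 107 bases upstream: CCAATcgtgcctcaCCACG
Dnajc3, chr14:118937827-118937845, starting 105 bases upstream: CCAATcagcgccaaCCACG
Creld2, chr15:88819520-88819538, on the opposite strand, 126 bases upstream: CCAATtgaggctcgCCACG
Pdia6, chr12:17266491-17266509, starting 98 bases upstream: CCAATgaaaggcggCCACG
Calr, chr8:84847075-84847093, on the opposite strand, 162 bases upstream: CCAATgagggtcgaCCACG
Canx, chr11:50325800-50325818, starting 145 bases upstream: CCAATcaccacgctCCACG
Derl3, chr10:75893242-75893260, on the opposite strand, 156 bases upstream: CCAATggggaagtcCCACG
Syvn1, chr19:6046532-6046550, starting 44 bases upstream: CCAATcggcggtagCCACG

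The type II element (ATTGG, any base, CCACG) was found in Herpud1 and Dnajb11, 2 of 30 genes, against 0.0444% of all genes. That of Herpud1, a membrane protein of ER-associated degradation, lay 52 bases upstream at chr8:94386377-94386387 and read ATTGGgCCACG. The core of the unfolded protein response element (TGACGTGG) matched 0 of 30 genes, against 0.714% of all genes, and the CACGTG box, the letters bound by Myc and Max and by many related factors, matched 5 of 30 (Dnajb9, Fkbp11, Calr, Derl3 and Ssr1), against 8.09%. No match of these 3 motifs shared a base with an ERSE match in the 30 genes, and a match describes letters in the window only.

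The following 3 windows are shown because their genes, each with an ERSE in capitals, went different ways between the tumor types below: Dnajc3 and Syvn1 were higher and Canx lower in TGFα/Myc than in Myc tumors. Each runs 5′ to 3′ along the gene's strand and ends at the base before the start.
Dnajc3, chr14:118937682-118937931, plus strand: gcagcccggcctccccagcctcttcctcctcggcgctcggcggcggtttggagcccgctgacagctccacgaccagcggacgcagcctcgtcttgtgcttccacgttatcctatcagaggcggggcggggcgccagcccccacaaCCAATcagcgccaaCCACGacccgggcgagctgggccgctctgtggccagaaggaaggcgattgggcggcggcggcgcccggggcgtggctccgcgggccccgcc
Syvn1, chr19:6046326-6046575, plus strand: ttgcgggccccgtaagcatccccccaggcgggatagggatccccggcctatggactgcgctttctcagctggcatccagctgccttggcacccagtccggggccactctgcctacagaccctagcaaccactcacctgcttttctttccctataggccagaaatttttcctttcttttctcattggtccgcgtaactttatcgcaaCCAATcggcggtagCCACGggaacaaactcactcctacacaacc
Canx, chr11:50325674-50325923, minus strand: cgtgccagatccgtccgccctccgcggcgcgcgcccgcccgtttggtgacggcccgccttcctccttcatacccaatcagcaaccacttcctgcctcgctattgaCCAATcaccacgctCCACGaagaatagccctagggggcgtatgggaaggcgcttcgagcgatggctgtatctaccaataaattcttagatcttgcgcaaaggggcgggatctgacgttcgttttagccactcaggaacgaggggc

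Myc tumors were first compared with controls, the question being which of these genes are at another level in a tumor that expresses Myc. Of the 9 chaperones and co-chaperones 4 fell and 5 did not pass, and of the 7 degradation genes 2 fell and 5 did not pass. Of the 11 genes of the translocon, TRAP complex, signal peptidase and oligosaccharyltransferase, 3 rose and 8 did not pass. In limma's fit over 31 arrays with Benjamini-Hochberg adjustment over all genes, 15 of 38 genes (39.5%) passed an adjusted p of 0.05, 6 higher and 9 lower, with a median log2 difference of -0.10 over the 38. Of all genes, 35.9% passed, 18.8% higher and 17.1% lower, with a median of -0.01, so that the share of these genes was near the background. The heat map of differences gives all 38 genes in 7 comparisons.

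**Figure D1:**
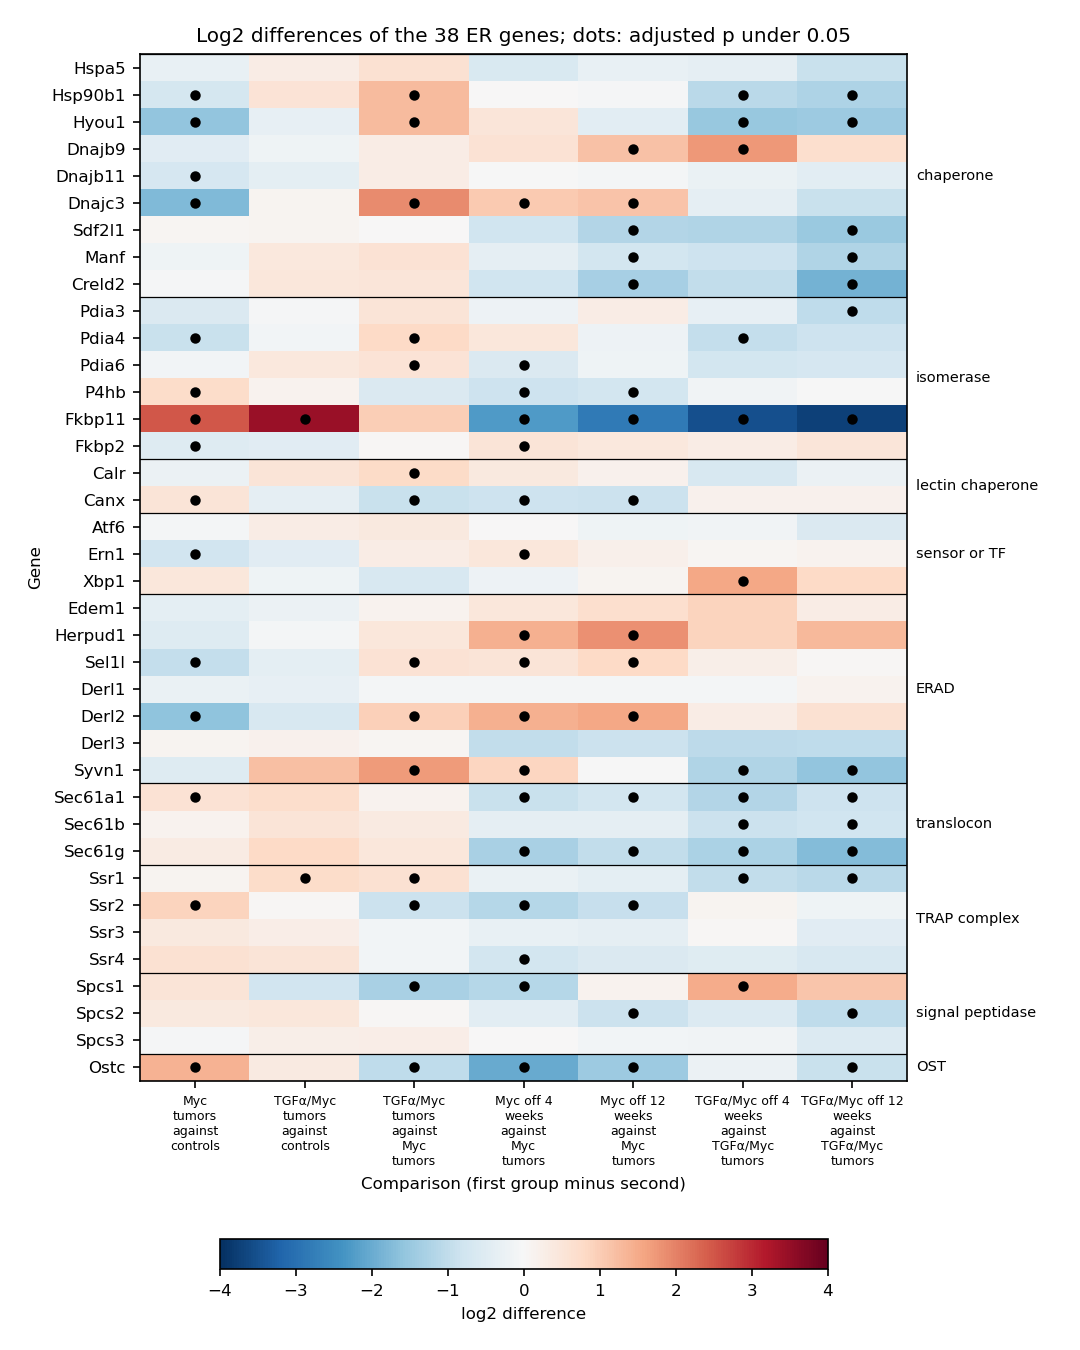
Log2 difference (colour) of each of the 38 genes (rows, grouped by role) in 7 comparisons (columns, first group minus second), with a dot where limma's adjusted p was under 0.05. Fkbp11 is the deepest red in both tumor columns against controls (2.47 and 3.45) and the deepest blue in all 4 columns of off livers against tumors.

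Among the 9 chaperones, 4 fell and 0 rose. Dnajc3 (P58IPK), a co-chaperone of BiP that also restrains the kinase PERK, ranged from -1.60 to -0.14 in the 7 Myc tumors with a median of -0.89, against 1.52, 0.46 and 0.69 in the 3 controls. All tumors lay below all controls. On the log2 scale the fall was -1.77 ± 0.29 (SE; adjusted p = 6.86e-05), or 3.41-fold. Its 3 other probes gave -0.76, -0.64 and -0.92, so the direction was shared and the size was not.

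Hyou1 (GRP170), the exchange factor that resets BiP, ranged from -1.14 to -0.28 with a median of -0.81 in Myc tumors, against 0.29, 1.35 and 1.08 in controls. The groups did not overlap, and the difference was -1.58 ± 0.32 (adjusted p = 0.000594). A second, dimmer Hyou1 probe gave -0.05 (adjusted p = 0.826), so this call rests on the brighter probe.

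Hsp90b1 (GRP94), the ER member of the Hsp90 family, had a median of -0.16 in Myc tumors, from -0.38 to 0.17, against 0.41, 0.34 and 1.01 in controls. Every tumor was below every control, by 0.70 ± 0.14 on average (a log2 difference of -0.70, adjusted p = 0.000556), and a second probe fell by 1.09. The probe was saturated on a single array in each of the 2 groups. Dnajb11 (ERdj3), another co-chaperone of BiP, fell by 0.67 (adjusted p = 0.0336) with overlapping groups.

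The master chaperone Hspa5 (BiP) did not pass: it ranged from -0.63 to 0.18 with a median of -0.20 in Myc tumors, against 0.34, -0.17 and 0.09 in controls, a difference of -0.31 ± 0.25 (adjusted p = 0.358). Of the sensors, Ern1 fell by 0.76 ± 0.16 (adjusted p = 0.000608), its tumors at -0.76 to 0.01 lying below the controls at 0.13, 0.71 and 0.55. Xbp1 (0.45 ± 0.36, adjusted p = 0.357) and Atf6 (-0.08 ± 0.23, adjusted p = 0.823) did not pass. The array reads total Xbp1 transcript and not its splicing.

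In ER-associated degradation, Derl2 and Sel1l fell and the other 5 genes did not pass. Derl2, a derlin of the membrane channel for misfolded proteins, ranged from -1.73 to -0.96 with a median of -1.54 in Myc tumors, against 0.45, 0.14 and -0.10 in controls. Each tumor lay well below each control, a difference of -1.62 ± 0.21 (adjusted p = 4.82e-06), and its second probe fell by 0.86. Sel1l, the adaptor of the ubiquitin ligase Syvn1 (HRD1), was at -1.13 to -0.83 in the tumors and at 0.15, 0.03 and -0.04 in the controls, a difference of -0.96 ± 0.12 (adjusted p = 4e-06) with tight, separate groups.

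The isomerases split. Fkbp11, a prolyl isomerase that is abundant in secretory cells, ranged from 1.15 to 2.94 with a median of 2.64 in Myc tumors, against -0.11, 0.20 and -0.08 in controls. It was 5.55-fold higher (2.47 ± 0.41, adjusted p = 7.88e-05), the largest difference among the 38 genes in this comparison, and its lowest tumor was tumor 5. A second Fkbp11 probe gave -0.14 (adjusted p = 0.831), so the rise was seen at the brighter probe only. The disulfide isomerase Pdia4 fell by 0.88 ± 0.23 (adjusted p = 0.00429) and Fkbp2 by 0.51 (adjusted p = 0.0379), while P4hb, the classical protein disulfide isomerase, rose by 0.72 (adjusted p = 0.043).

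Genes of entry and glycosylation that changed were higher. Ostc, a subunit of the oligosaccharyltransferase, ranged from 0.64 to 1.43 with a median of 1.06 in Myc tumors, against -0.20, -0.49 and -0.49 in controls. The groups were far apart (1.40 ± 0.16, adjusted p = 1.35e-06), and its second probe rose by 1.81. Ssr2, of the TRAP complex that sits beside the channel, rose by 0.90 ± 0.20 (adjusted p = 0.00111), the pore subunit Sec61a1 by 0.58 (adjusted p = 0.00755) and the lectin chaperone Canx by 0.53 (adjusted p = 0.0198). The other Canx probes gave -0.03 and 0.33, neither of which passed.

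The scan day that held Myc tumor 1 and control 2 compares a single tumor with a single control, both also in the comparison above, so its p-values assume that these arrays vary like those of the other groups. There 14 of the 15 genes called above had the same sign, P4hb being the exception (-0.19). Of the 15, 7 passed there too: Derl2 (-1.69), Dnajc3 (-2.06), Ern1 (-1.17), Hyou1 (-2.49), Ostc (1.13), Pdia4 (-1.50) and Sel1l (-0.97), while Fkbp11 was at 2.37 (adjusted p = 0.056). Hepatocyte markers fell in 5 of 9 genes and rose in 0 in the same tumors, with a median of -1.29, endothelial markers fell in 4 of 9 (median -0.82), and proliferation genes rose in 8 of 9 (median 3.43); the part of these in the results was not tested. Without the 3 arrays whose Myc signal or level was in doubt (Myc tumor 5, TGFα/Myc tumor 3 and the TGFα/Myc off 4 weeks liver 3), all 15 calls held among 17. Calls over all genes rose there from 7882 to 9119.

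**Figure D2:**
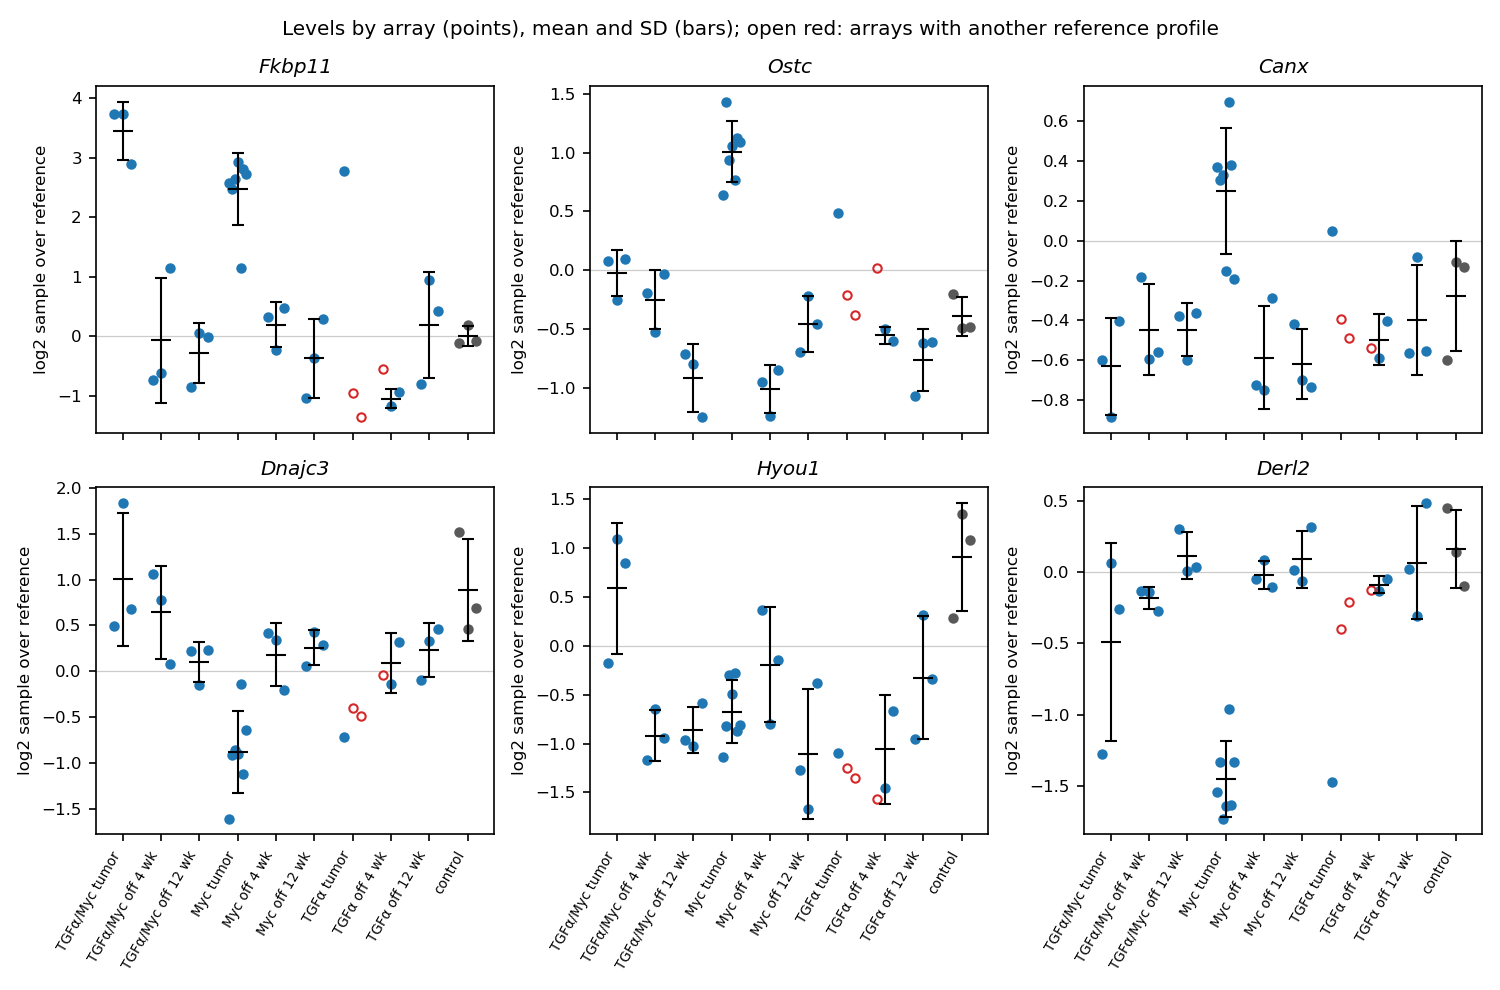
Log2 level of 6 genes on each array (points) in the 10 groups, with the mean and SD of each group as bars; open red points are the 3 arrays with a different reference, which enter no mean. Myc tumors stand above controls for Fkbp11 and Ostc and below them for Dnajc3, Hyou1 and Derl2, and TGFα/Myc tumors overlap the controls for Dnajc3 and Hyou1.

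TGFα/Myc tumors were next compared with controls. Only Fkbp11 and Ssr1 passed, 2 of 38 genes (5.26%), both higher, with a median difference of 0.16 over the 38. Of all genes 2.13% passed, 1.14% higher and 0.988% lower, and 13 of the 38 had an unadjusted p under 0.05, against 14.2% of all genes. Fkbp11 stood at 3.74, 3.73 and 2.89 in the 3 tumors, against -0.11, 0.20 and -0.08 in the controls. This was 10.9-fold higher (3.45 ± 0.49, adjusted p = 0.000543), while the second probe gave 1.28 (adjusted p = 0.230).

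Ssr1, the alpha subunit of the TRAP complex, was at 1.25, 1.00 and 1.39 in TGFα/Myc tumors and at 0.63, 0.25 and 0.57 in controls (0.73 ± 0.18, adjusted p = 0.0363). The groups did not overlap at that probe, but its 4 other probes all gave differences below 0, so the direction of Ssr1 is not settled. On the scan day with 2 of these tumors and 1 control, the lone control being assumed to vary like the other groups, Fkbp11 was at 3.85 (adjusted p = 0.010) and Ssr1 at 0.49 (adjusted p = 0.197). Without the 3 arrays in doubt 5 members passed, while calls over all genes rose from 468 to 1729. Leaving out control 1 or control 2 left 1 call, and a fit on these 2 groups alone left 0. Array medians of proliferation genes were 0.34 to 2.08 in these tumors, against -0.31 to -0.12 in controls. Those of endothelial markers overlapped (-0.46 to 0.24 against -0.22 to 0.06). The part of these in the results was not tested.

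Of the 9 genes that fell in Myc tumors, 0 passed in TGFα/Myc tumors against the same controls. Among them were Dnajc3 (0.11 ± 0.34, adjusted p = 0.971), Hyou1 (-0.32 ± 0.38, adjusted p = 0.851) and Derl2 (-0.65 ± 0.25, adjusted p = 0.195). With SEs of this size, smaller differences were not detectable.

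Between the tumor types, 3 of 9 chaperones (Dnajc3, Hyou1 and Hsp90b1) and 3 of 7 degradation genes (Syvn1, Sel1l and Derl2) were higher in TGFα/Myc tumors and 0 of either were lower. Spcs1, Ostc, Ssr2 and Canx were lower, and none of the 3 translocon genes passed. Of the 38 genes, 14 passed (36.8%), 10 higher and 4 lower in TGFα/Myc tumors, with a median of 0.34. Of all genes 25% passed, 12% higher and 13% lower, and 29 of the 38 differences were above 0. The dot plot of differences orders all 38 genes.

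**Figure D3:**
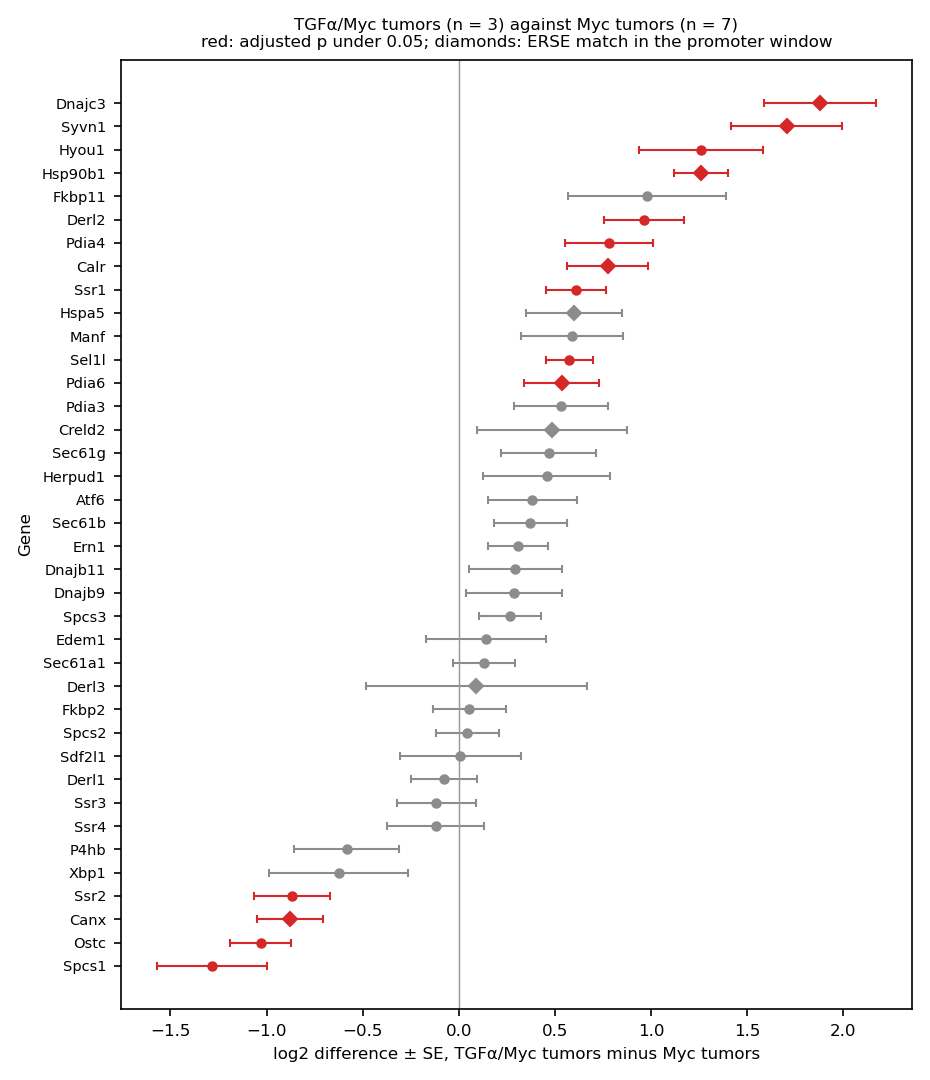
Log2 difference ± SE of each of the 38 genes, TGFα/Myc tumors (n = 3) minus Myc tumors (n = 7), in order of size, with genes past an adjusted p of 0.05 in red and genes with an ERSE match drawn as diamonds. Genes without a promoter window, Hyou1 among them, are drawn as circles like genes searched without a match. The 10 genes higher in TGFα/Myc tumors run from Pdia6 (0.54) to Dnajc3 (1.88), and the 4 lower ones from Ssr2 (-0.87) to Spcs1 (-1.28).

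Dnajc3 stood at 0.49, 1.83 and 0.68 in TGFα/Myc tumors, against -1.60 to -0.14 in Myc tumors. It was 3.68-fold higher with no overlap (1.88 ± 0.29, adjusted p = 0.000112), and its other probes gave 0.26, 0.81 and 0.28, of which 0.81 passed. Hsp90b1 stood at 0.96, 1.44 and 1.03, against -0.38 to 0.17, again without overlap (1.26 ± 0.14, adjusted p = 8.84e-06), and its second probe gave 0.98, which also passed. The brighter Hsp90b1 probe was saturated on a single Myc tumor array. Its normalized log2 sample signal was 15.97 and 15.95 in TGFα/Myc tumors 2 and 3, against at most 15.70 in Myc tumors, so the size is uncertain. Hyou1 at -0.17, 1.09 and 0.84 lay above the Myc tumors' -1.14 to -0.28 (1.26 ± 0.32, adjusted p = 0.00669), but its second probe gave 0.10 (adjusted p = 0.659).

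Hspa5 stood at -0.23, 0.36 and 1.00 in TGFα/Myc tumors, against -0.63 to 0.18 in Myc tumors, and its 0.60 ± 0.25 did not pass (adjusted p = 0.0817). Calr, the soluble lectin chaperone, rose by 0.77 (adjusted p = 0.0101), Pdia4 by 0.78 (adjusted p = 0.0146) and Pdia6 by 0.54 (adjusted p = 0.0463). Canx, the membrane-bound partner of Calr, went the other way: it stood at -0.60, -0.89 and -0.40 in TGFα/Myc tumors, against -0.19 to 0.70 with a median of 0.33 in Myc tumors. All TGFα/Myc tumors were below all Myc tumors (-0.88 ± 0.17, adjusted p = 0.000942). Its other probes gave -0.16 and -1.26, and the second of these passed.

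In degradation, Syvn1, the ubiquitin ligase of the ER membrane, stood at 0.31, 1.72 and 1.19 in TGFα/Myc tumors, against -1.04 to -0.35 with a median of -0.63 in Myc tumors. It was 3.26-fold higher without overlap (1.71 ± 0.29, adjusted p = 0.000258), while a second probe gave 0.04 (adjusted p = 0.822). Its partner Sel1l was at -0.65, -0.21 and -0.15, above every Myc tumor (0.58 ± 0.12, adjusted p = 0.00168). Derl2 stood at -1.27, 0.06 and -0.26, higher on average by 0.96 ± 0.21 (adjusted p = 0.00203), with TGFα/Myc tumor 1 inside the range of the Myc tumors.

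Of the entry genes, Spcs1, a small subunit of the signal peptidase, stood at -1.40, -1.21 and -0.95 in TGFα/Myc tumors, against -0.13 to 0.26 in Myc tumors. It was 2.44-fold lower with no overlap (-1.28 ± 0.29, adjusted p = 0.00261), while its controls spread from -0.96 to 0.46. Ostc stood at 0.08, -0.25 and 0.10, below every Myc tumor (-1.03 ± 0.16, adjusted p = 0.00012), and its second probe gave -1.81. Within the TRAP complex, Ssr1 rose by 0.61 (adjusted p = 0.00657, its other probes below 0), Ssr2 fell by 0.87 (adjusted p = 0.00309), and Ssr3 and Ssr4 did not pass.

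Over the 11 called genes with another kept probe, 15 of 20 other probes had the sign of the brightest and 5 the opposite, none of which passed. These tumor groups shared no slide or scan day. With scan day as a fixed block 0 members passed, so transgene and scan cannot be told apart here. Leaving out TGFα/Myc tumor 2, which had the highest level of Dnajc3, Hyou1, Hsp90b1 and Syvn1, left 9 calls. Hepatocyte markers were higher in TGFα/Myc tumors in 6 of 9 genes (median 1.22), endothelial markers in 6 of 9 (median 1.47), and proliferation genes were lower in 5 of 9 (median -1.25); their part in these differences was not tested. B and plasma cell markers showed 1 higher and 1 lower of 9 (median 0.03).

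Of the 9 genes with an ERSE match, 5 were higher in TGFα/Myc tumors (Dnajc3, Syvn1, Hsp90b1, Calr and Pdia6), 1 was lower (Canx) and 3 did not pass (Hspa5, Creld2 and Derl3). Of all 38 members 10 were higher and 4 lower, and of all genes 12% and 13%. Sel1l, Pdia4, Derl2 and Ssr1, also higher, had no ERSE match in their windows, and Hyou1, the remaining higher gene, had no window to search. The match says nothing of whether a factor was bound.

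**Figure D4:**
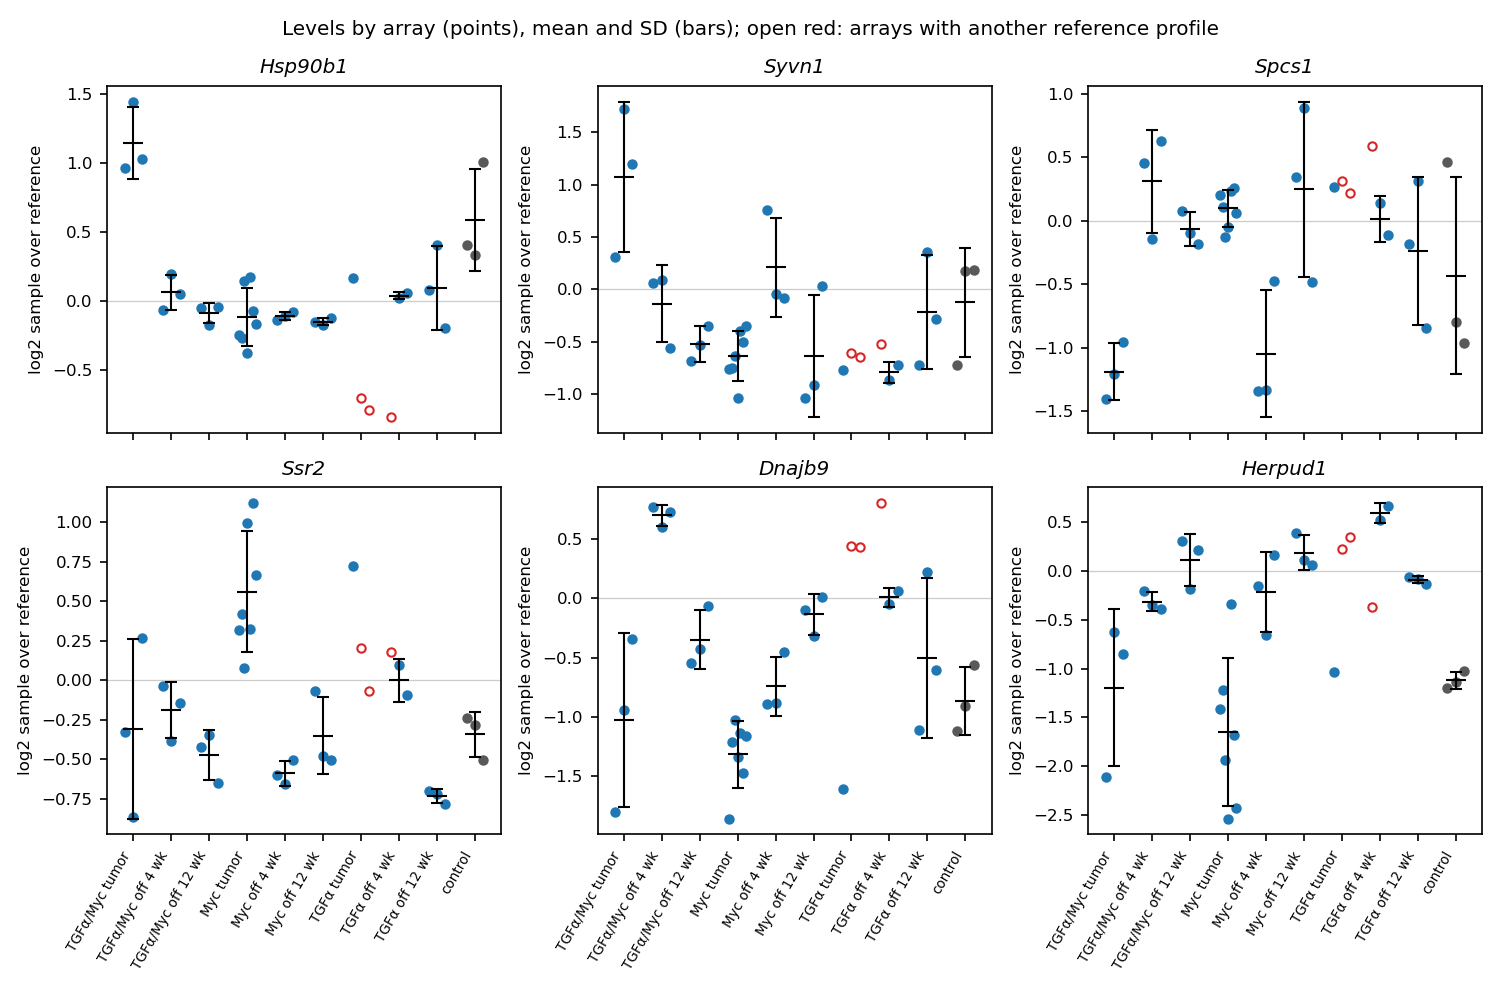
Log2 level of 6 further genes on each array (points) in the 10 groups, with the mean and SD as bars; open red points are the 3 arrays with a different reference, which enter no mean. TGFα/Myc tumors have the highest mean for Hsp90b1 and Syvn1 and the lowest for Spcs1, TGFα/Myc livers off for 4 weeks have the highest mean for Dnajb9, and Herpud1 is higher in off livers than in most tumors.

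TGFα tumors were not tested, since 2 of the 3 arrays had the other reference. On those 2 arrays the sample channel too had low hepatocyte and high intestinal marker signal. TGFα tumor 1 had an Fkbp11 level of 2.77, inside the range of the Myc tumors, against -0.95 and -1.36 for tumors 2 and 3 over their own reference. Its Derl2 (-1.47), Hyou1 (-1.09), Dnajc3 (-0.71), Syvn1 (-0.77) and Sel1l (-1.10) were also at levels seen in Myc tumors, and its Spcs1 was at 0.27. This is the tumor whose Myc probes read high. TGFα tumors 2 and 3 had Derl2 at -0.40 and -0.21, Dnajc3 at -0.40 and -0.48, Hyou1 at -1.25 and -1.35, and Hsp90b1 at -0.70 and -0.79, values that are not on the scale of the other arrays.

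Livers in which Myc had been off for 4 weeks were compared with Myc tumors, asking which levels differ once the transgene is silent. At 4 weeks 4 of 7 degradation genes rose and 0 fell, 3 of 6 isomerases fell and 1 rose, 2 of 3 translocon genes and 2 of 4 TRAP genes fell, and the other members of these roles did not pass. Of the 38 genes 17 passed (44.7%), 7 higher and 10 lower, with a median of -0.23, against 31.8% of all genes, 14.3% higher and 17.5% lower, with a median of 0.01. After 12 weeks 16 of 38 passed (42.1%), 5 higher and 11 lower, with a median of -0.20, against 31.6% of all genes, 15.1% higher and 16.5% lower. Both comparisons share the 7 Myc tumors.

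Fkbp11 stood at 0.33, -0.22 and 0.48 in livers off for 4 weeks and at -1.04, -0.37 and 0.30 in those off for 12 weeks, against 1.15 to 2.94 in Myc tumors. Every off liver was below every tumor, with differences of -2.28 (adjusted p = 0.000223) and -2.84 (adjusted p = 2.13e-05), while the second probe gave -0.13 and -0.49, neither passing. Ostc stood at -0.95, -1.24 and -0.85 after 4 weeks and at -0.70, -0.22 and -0.46 after 12 weeks, against 0.64 to 1.43 in tumors, again far below (-2.02, adjusted p = 4.82e-08, and -1.46, adjusted p = 1.02e-06).

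In the translocon and TRAP complex some members passed and others did not. Sec61g, the small gamma subunit of the channel, fell by 1.29 after 4 weeks (adjusted p = 0.000399) and by 0.97 after 12 weeks (adjusted p = 0.00434). Ssr2 fell by 1.15 and 0.91, Sec61a1 by 0.88 and 0.72, and Canx by 0.84 and 0.87, all past the threshold, while Sec61b, Ssr1 and Ssr3 passed at neither time. Spcs1 stood at -1.34, -1.33 and -0.47 after 4 weeks, below the tumors' -0.13 to 0.26 (-1.14, adjusted p = 0.0038), but at 0.34, 0.88 and -0.48 after 12 weeks, where it did not pass.

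Of the 7 degradation genes 4 rose at 4 weeks and 3 at 12 weeks, and Derl3 was at -0.97 and -0.87 without passing. Derl2 stood at -0.05, 0.09 and -0.10 after 4 weeks and at 0.01, -0.06 and 0.32 after 12 weeks, against -1.73 to -0.96 in Myc tumors. The groups were apart at both times (1.43, adjusted p = 2.6e-05, and 1.54, adjusted p = 9.69e-06), and a second probe gave 0.95 and 1.10. Herpud1 stood at -0.15, -0.65 and 0.16 and at 0.39, 0.11 and 0.06, against -2.54 to -0.34 with a median of -1.68 in tumors (1.44, adjusted p = 0.00196, and 1.84, adjusted p = 0.000208). It overlapped the tumors at 4 weeks and not at 12. Controls stood at -1.19, -1.14 and -1.03 for Herpud1, inside the range of the tumors and below all of these off livers. Against controls it did not pass in any off group. Sel1l rose by 0.53 (adjusted p = 0.00184) and 0.80 (adjusted p = 3.54e-05).

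Of the chaperones, Dnajc3 rose by 1.06 after 4 weeks (adjusted p = 0.00708) and by 1.14 after 12 weeks (adjusted p = 0.00432), its livers at -0.21 to 0.41 and 0.05 to 0.43. Dnajb9 (ERdj4), a co-chaperone of BiP, rose by 1.18 after 12 weeks (adjusted p = 0.000879), where Creld2 (-1.34, adjusted p = 0.0105), Sdf2l1 (-1.18, adjusted p = 0.0062) and Manf (-0.75, adjusted p = 0.0343) fell. Creld2, Sdf2l1 and Manf are ER proteins known as targets of the unfolded protein response. Hsp90b1, low in the tumors, did not pass at either time (0.01 and -0.03), and neither did Hyou1 (0.48 and -0.43).

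On the scan day with all 3 Myc off 4 weeks livers and Myc tumor 1, 16 of the 17 called genes had the same sign. Among them were Ostc (-1.65), Fkbp11 (-2.37), Derl2 (1.52) and Dnajc3 (1.79). P4hb was the exception, at 0.04. On the slide shared by a single liver and a single tumor, all 17 had the same sign. All of these arrays were also in the comparison above, so the shared signs are not independent of it. After 12 weeks the livers shared no day with a Myc tumor, and with scan day as a fixed block 0 of 38 passed. Hepatocyte markers were higher in 7 of 9 genes at 4 weeks (median 1.36) and in 3 of 9 at 12 weeks (median 0.74). Array medians of endothelial markers were -1.93 to -0.81 in Myc tumors, -0.28 to 0.01 at 4 weeks and -0.64 to -0.16 at 12 weeks. Those of proliferation genes were 0.03 to 3.73, -0.08 to 0.01 and -0.23 to -0.002. None of these was tested as a source of the differences.

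TGFα/Myc livers off for 4 weeks were compared with TGFα/Myc tumors, where 12 of 38 genes passed (31.6%), 3 higher and 9 lower, with a median of -0.34. The background was 8.19% of all genes, 4.03% higher and 4.17% lower. After 12 weeks 14 of 38 passed (36.8%), all lower, with a median of -0.65, against 4.64% of all genes, 2.23% higher and 2.41% lower, with a median of -0.01. Groups did not overlap for 14 and 21 of the 38 genes, against 25.1% and 26.8% of all genes, and 27 of 38 differences were below 0 at 12 weeks. The bar chart sets the share of members that passed beside that of all genes.

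**Figure D5:**
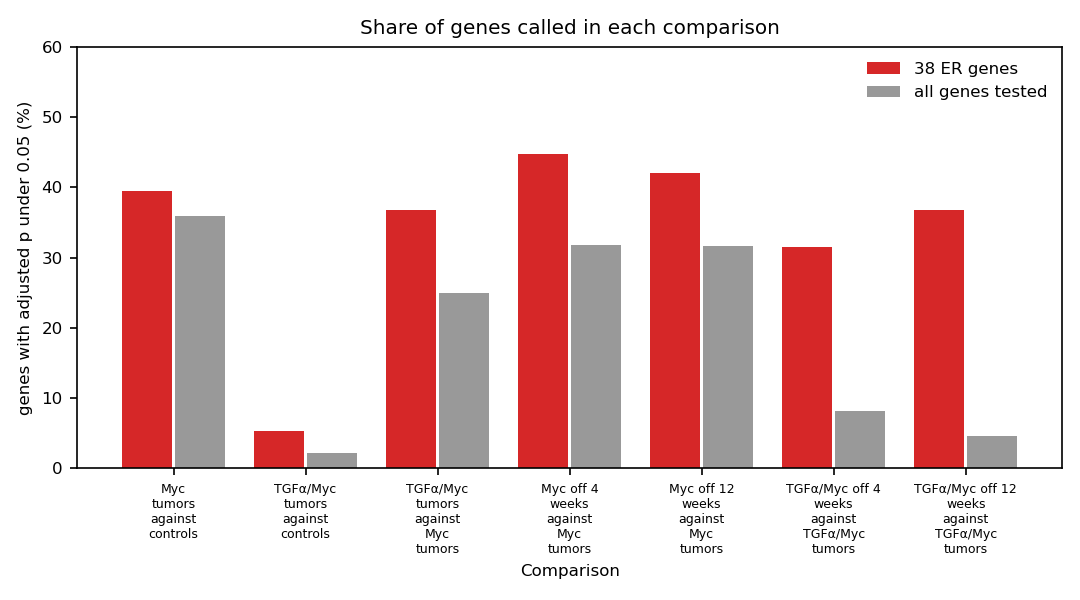
Share (%) of the 38 ER genes (red) and of all 21958 genes tested (gray) with an adjusted p under 0.05 in 7 comparisons. The red bar is furthest from the gray one for TGFα/Myc off livers against TGFα/Myc tumors (31.6% against 8.19% at 4 weeks and 36.8% against 4.64% at 12 weeks) and close to it for Myc tumors against controls (39.5% against 35.9%).

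Fkbp11 stood at -0.73, -0.61 and 1.14 after 4 weeks and at -0.86, 0.05 and -0.02 after 12 weeks, against 3.74, 3.73 and 2.89 in TGFα/Myc tumors. It fell by 3.52 (adjusted p = 0.000149) and by 3.73 (adjusted p = 0.000146) on the log2 scale, or 11.5-fold and 13.3-fold lower, with every off liver below every tumor. At its second probe the falls were 1.58, which did not pass, and 1.84, which did (adjusted p = 0.036).

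Of the 3 chaperones that were higher in these tumors than in Myc tumors, Hsp90b1 and Hyou1 fell in the off livers at both times, and Dnajc3 passed at neither. Hsp90b1 stood at -0.06, 0.20 and 0.05 after 4 weeks and at -0.05, -0.17 and -0.05 after 12 weeks, against 0.96, 1.44 and 1.03 in tumors (-1.08, adjusted p = 0.000492, and -1.23, adjusted p = 0.000189). Hyou1 stood at -1.17, -0.65 and -0.95 and at -0.96, -1.02 and -0.59, against -0.17, 1.09 and 0.84 (-1.51, adjusted p = 0.0153, and -1.44, adjusted p = 0.0289), with second-probe values of 0.28 and 0.04 that did not pass. For both genes the off livers and the tumors were fully apart in the ratio to the reference. The normalized log2 sample signal of Hsp90b1 was not apart at 4 weeks. It was 15.39, 16.00 and 15.39 in these off livers, against 15.76, 15.97 and 15.95 in tumors, so the size of its fall is uncertain.

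At 12 weeks Creld2 stood at -1.40, -1.71 and -1.37, against -0.61, 0.84 and 0.98 in tumors (-1.90, adjusted p = 0.0166), and Sdf2l1 (-1.48, adjusted p = 0.0222) and Manf (-1.20, adjusted p = 0.0263) fell as well. Hspa5 did not pass at either time (-0.36 and -0.90, adjusted p = 0.582 and 0.0858). Dnajb9 went against the other chaperones at 4 weeks: it stood at 0.77, 0.60 and 0.73, against -1.81, -0.94 and -0.34 in tumors (1.73, adjusted p = 0.000972), and 1 of its 2 other probes passed in the same direction (1.57). Xbp1 did likewise, at 0.26, 0.36 and 0.26 against -2.09, -1.51 and -0.13 (1.54, adjusted p = 0.0267), and neither passed at 12 weeks.

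All 3 channel subunits were lower at both times. Sec61g stood at 0.56, 0.17 and 0.47 after 4 weeks and at -0.05, -0.26 and 0.10 after 12 weeks, against 2.00, 1.54 and 1.50 in tumors (-1.28, adjusted p = 0.00804, and -1.75, adjusted p = 0.0013). Sec61a1 fell by 1.16 and 0.83, and Sec61b by 0.87 and 0.79. Spcs1 rose by 1.50 at 4 weeks (adjusted p = 0.0075), to 0.45, -0.15 and 0.63 against -1.40, -1.21 and -0.95 in tumors. Syvn1 fell by 1.21 (adjusted p = 0.0281) and 1.59 (adjusted p = 0.00826). Over the called genes with another kept probe, 8 of 12 other probes had the sign of the brightest at 4 weeks and 9 of 12 at 12 weeks. The probes of opposite sign did not pass. With the mean of all kept probes 8 of 12 and 8 of 14 calls were kept.

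These off livers shared no slide or scan day with the TGFα/Myc tumors. All 3 livers off for 12 weeks were on a single slide and scan day. With slide as a random block 7 and 4 calls remained of 12 and 14. With scan day as a fixed block Fkbp11 and Hsp90b1 were the 2 calls at 12 weeks, the fit at 4 weeks having no solution. Fits on only the groups compared kept 0 of 12 and 5 of 14 calls, with 38 and 254 calls over all genes. Without the 3 arrays in doubt 10 and 17 members passed, while calls over all genes rose from 1799 to 2538 and from 1019 to 2471. Leaving out TGFα/Myc tumor 2 left 8 and 9 calls, and at 12 weeks leaving out off liver 1, 2 or 3 left 8, 7 or 6. Proliferation genes fell in 4 of 9 at both times (medians -1.04 and -1.03), while hepatocyte markers rose in 1 and 0 and fell in 0 and 1 of 9, and endothelial markers changed in 0 of 9.

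The change from tumor to off liver was then compared between genotypes, as the TGFα/Myc difference less the Myc difference. At 4 weeks 14 of 38 genes passed (36.8%), 6 above 0 and 8 below, against 14.3% of all genes, and at 12 weeks 4 of 38 (10.5%), 1 above and 3 below, against 2.95%. Dnajc3 (-1.42 ± 0.45 and -2.04 ± 0.45) and Hsp90b1 (-1.09 ± 0.22 and -1.20 ± 0.22) passed below 0 at both times. Canx passed above 0 at both (1.02 ± 0.27 and 1.05 ± 0.27). The Hsp90b1 sizes carry the uncertainty given above. Spcs1 had the largest value at 4 weeks (2.64 ± 0.45, adjusted p = 0.000685), followed by Syvn1 (-2.05 ± 0.45, adjusted p = 0.00408). Fkbp11 did not pass at either time (-1.24 and -0.89, adjusted p = 0.203 and 0.475). Without TGFα/Myc tumor 2 the 18 calls were 9. With scan day as a fixed block 0 of the 4 calls at 12 weeks remained, and the fit at 4 weeks had no solution. With the mean of all kept probes the responses of Dnajc3 and Ssr1 at 4 weeks changed sign.

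Off livers were last compared with the controls, which all 6 comparisons share. Few genes passed. The 38 genes gave 0 calls for Myc off 4 weeks (0.00455% of all genes passed, and 10 of the 38 had an unadjusted p under 0.05, against 4.35% of all genes), 1 for Myc off 12 weeks (0.159%), 3 for TGFα/Myc off 4 weeks (5.61%), 0 for TGFα/Myc off 12 weeks (0.0182%, with 14 unadjusted, against 9.54%), 2 for TGFα off 4 weeks (0.751%, 2 livers) and 0 for TGFα off 12 weeks (0.105%, with 12 unadjusted, against 7.8%).

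Hyou1 made 3 of these 6 calls: -2.01 ± 0.38 in Myc livers off for 12 weeks (adjusted p = 0.035), -1.82 in TGFα/Myc livers off for 4 weeks (adjusted p = 0.00774) and -1.96 in TGFα livers off for 4 weeks (adjusted p = 0.0303). It stood at -1.27, -1.67 and -0.38, at -1.17, -0.65 and -0.95, and at -1.45 and -0.66 there, against 0.29, 1.35 and 1.08 in controls, so that no off liver of these groups reached a control. Its fits in the other 3 off groups were also below 0 (-1.10, -1.76 and -1.23) without passing. The second Hyou1 probe was not compared with controls in off livers. The call at 12 weeks was lost with the mean of all kept probes, the Agilent log ratio or the sample channel alone. It was also lost with slide or scan day as a block or with sex-linked expression in the fit. Both TGFα livers and TGFα/Myc livers 1 and 2, off for 4 weeks, were on a single slide and scan day that held no control. Sdf2l1 fell by 2.09 in TGFα livers off for 4 weeks (adjusted p = 0.0186), and in TGFα/Myc livers off for 4 weeks Dnajb9 rose by 1.57 (adjusted p = 0.00451) and Pdia4 fell by 1.04 (adjusted p = 0.0255). Fkbp11, high in the tumors, differed from controls by -1.05 to 0.19 over the 6 groups and passed in none.

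Medians of the 38 differences from controls were below 0 in all 6 off groups, between -0.45 and -0.16, while the median over all genes was never lower than -0.02. All 6 medians rest on the same 3 controls, so their shared sign is not independent. The sum of 6 calls was 1 without control 2, 2 without control 3 and 9 without control 1, and 11 without the 3 arrays in doubt. Livers off for 12 weeks were also compared with those off for 4 weeks, and 0 of 38 genes passed in limma's fit for Myc (0.00455% of all genes passed), TGFα/Myc (0.893%) or TGFα (0.956%). An unadjusted p under 0.05 was reached by 6, 5 and 2 of the 38, against 7.08%, 13.3% and 12.7% of all genes.

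Other genes of the same compartment, in 7 lists, were counted alongside, to be read against the shares of all genes: 18.8% higher and 17.1% lower in Myc tumors against controls, 12% and 13% between the tumor types, 14.3% and 17.5% in Myc livers off for 4 weeks, and 15.1% and 16.5% off for 12 weeks. In Myc tumors against controls the other translocation and targeting genes gave 5 higher and 0 lower of 13, among them the signal peptidase catalytic subunit Sec11a (0.99, adjusted p = 8.1e-05) and the signal recognition particle proteins Srp54a (1.09) and Srp68 (1.46). Between the tumor types the same list gave 0 higher and 6 lower of 13 in TGFα/Myc tumors, and in Myc livers off for 4 and 12 weeks 0 higher and 7 and 6 lower. The N-glycosylation and lectin cycle list gave 5 higher and 3 lower of 17 in Myc tumors, with Ganab, the glucosidase that trims glycans for calnexin, at -1.43 and the catalytic subunit Stt3b at 1.08.

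In TGFα/Myc tumors against controls that list gave 2 higher and 0 lower of 17, and the other 6 lists gave 0 calls. Of all genes 1.14% were higher and 0.988% lower there. The 2 were Ddost (1.03, adjusted p = 0.00032) and Rpn2 (0.74), both subunits of the oligosaccharyltransferase. Ddost fell by 1.52 and 1.00 in TGFα/Myc livers off for 4 and 12 weeks, and Rpn1 by 1.08 and 0.89. Of all genes 4.17% and 2.41% were called lower there. Other ER chaperones and thiol enzymes gave 2 higher and 5 lower of 15 in Myc tumors against controls, with the oxidase Ero1a at 1.43 and the thioredoxin-family protein Erp44 at -0.93, and these 2 genes were at -1.39 and 1.10 in TGFα/Myc against Myc tumors.

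Other degradation genes gave 2 higher and 3 lower of 12 in Myc tumors, led by Ufd1 (-0.77) and by Os9 (-1.43), a lectin of the Syvn1 and Sel1l complex, and Os9 was 1.35 higher in TGFα/Myc than in Myc tumors. ER to Golgi transport gave 4 higher and 3 lower of 25 in Myc tumors, with the coat subunit Arcn1 at 1.14. The PERK and ATF4 arm gave 2 higher and 0 lower of 10 in Myc tumors, the kinase Eif2ak3 (PERK, 0.70) and Nupr1 (1.50), and 0 calls in TGFα/Myc tumors. Other stress transcription factors and proteases gave 1 higher and 2 lower of 8 in Myc tumors.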

How the data were processed

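Per the file headers, each array was read with Agilent Feature Extraction, and the deposited files hold mean and background intensity for both dyes, processed intensity (background-subtracted, detrended and dye-normalized), the log10 ratio of red over green processed signal, and flags per spot. The series matrix holds the authors' log2 values of red over green, with column medians from -0.387 to 0.448. The submitters' processing notes name limma, and the normalization and centering of these values were not stated in the sources used here.

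Mean intensities were background-corrected with normexp (offset 50) and loess-normalized within each array in limma 3.58.1 (R 4.3.3). Control spots had weight 0, spots with outlier flags were left out, and spots of a probe were averaged as log2 of Cy3 (sample) over Cy5 (reference). Of 41174 probes, 31531 were kept, those whose sample channel passed Agilent's well-above-background flag on 3 or more of 31 arrays, and the brightest kept probe stood for each gene. Names came from the files, and for 24844 probes from RefSeq accessions. One coefficient per group was fitted over 31 arrays, with Benjamini-Hochberg adjustment over 21958 genes at 0.05. All adjusted p-values are from limma's moderated test. A second probe's adjusted p is over all probes.

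The members and all gene lists were chosen with earlier results of these data known. All 38 members were eligible to be named, those with the 8 largest changes past the threshold in full, up to 3 genes of each other list by smallest p, and Myc and 2 genes per marker list as checks. Samples sharing a replicate number were not paired: their deviations correlated at 0.0444 on average over 100 pairs, with 35 pairs over 0.1. Samples with different numbers correlated at -0.0152 on average over 292 pairs, with 50 over 0.1. The highest correlation between any 2 arrays was 0.905, and no array was a copy. The labels call the samples biological replicates. However, the same number recurs in the sample names of tumor 3 and tumor 4 of the Myc group. Both were counted as separate samples here. Whether they came from a single mouse is not known, and a search for copied arrays cannot decide it. The Myc tumor group may therefore hold fewer animals than arrays. Precision is limited by how few arrays a group has.

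The fit was tested on simulated data. For Myc tumors against controls it called 79% of genes changed by a log2 size of 1 and 96% of those changed by 2, and 10 unchanged genes among 21958. The simulated arrays varied independently, without slide, scan day or scanner effects, while the real arrays had a within-slide correlation of 0.435. These rates therefore do not cover the batches of this design. Alternatives covered the normalization, background, filters, probe choice, batches, samples and sex-linked expression (the labels give no sex), and leaving out each array. Figures were drawn with matplotlib 3.10.9 (Python 3.11.15).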

Additional observations from a re-analysis of the deposited data

Results flagged for a closer look

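Myc tumors were the only group with enough arrays to look for a single array apart from the rest. This was so for 3 of the 38 genes, against 8.66% of all genes in these tumors, and chance alone flags about 1 in 20 groups. Fkbp11 in Myc tumor 5 was at 1.15, with the other 6 tumors between 2.48 and 2.94. Fkbp2 in Myc tumor 5 was at -0.018, with the others between -1.15 and -0.69. Sel1l in Myc tumor 6 was at -1.13, with the others between -0.94 and -0.83. Myc tumor 5 is also the Myc tumor with the lowest Myc signal at 2 of 3 Myc probes (1.04 and 0.10). At the third probe it had the highest (0.43, the others between -0.96 and -0.32). The part of its Myc signal in its Fkbp11 and Fkbp2 levels was not tested.

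The difference between off livers and tumors itself differed between genotypes in limma's interaction test, given as the TGFα/Myc difference less the Myc difference. At 4 weeks the genes below 0 were Calr (-1.05, adjusted p = 0.0347), Derl2 (-1.12, adjusted p = 0.0227), Dnajc3 (-1.42, adjusted p = 0.0365), Hsp90b1 (-1.09, adjusted p = 0.00261), Hyou1 (-1.99, adjusted p = 0.0108), Pdia4 (-1.40, adjusted p = 0.0107), Ssr1 (-0.73, adjusted p = 0.0448) and Syvn1 (-2.05, adjusted p = 0.00408). Those above 0 were Canx (1.02, adjusted p = 0.0136), Dnajb9 (1.16, adjusted p = 0.0467), Ostc (1.80, adjusted p = 0.000171), Spcs1 (2.64, adjusted p = 0.000685), Ssr2 (1.26, adjusted p = 0.00853) and Xbp1 (1.74, adjusted p = 0.0390). At 12 weeks they were Canx (1.05, adjusted p = 0.0333), Dnajc3 (-2.04, adjusted p = 0.0180), Hsp90b1 (-1.20, adjusted p = 0.00821) and Sel1l (-0.76, adjusted p = 0.0298). With scan day as a fixed block 0 of these 4 passed. With the mean of all kept probes Dnajc3 and Ssr1 changed sign at 4 weeks.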

How the results depend on the processing

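Of the single-gene values under all alternatives, 2156 kept direction and call, 510 kept direction without passing, and 9 turned. With scan day as a fixed block P4hb turned in Myc tumors against controls (-0.19) and in Myc off 4 weeks livers against Myc tumors (0.035), and Pdia6 (-0.12) and Ssr1 (-0.32) between tumor types. With the mean of all kept probes Ssr1 turned in TGFα/Myc tumors against controls (-0.071), between tumor types (-0.079) and in the 4-week response (0.30), as did Pdia6 in Myc off 4 weeks livers (0.12) and Dnajc3 in the 4-week response (0.14). Member counts given below are set beside those of the report. Scan day as a block gave 8 of 15 in Myc tumors against controls, 10 of 17 and 0 of 16 in Myc off livers at 4 and 12 weeks, 2 of 14 in TGFα/Myc off 12 weeks livers and 0 of 14 between tumor types. It kept 1 of 2 calls in TGFα/Myc tumors against controls (Fkbp11), 0 of 1 in Myc off 12 weeks livers against controls and 0 of 4 responses at 12 weeks, with each sign kept, and it had no solution for TGFα/Myc off 4 weeks livers. Fits on only the groups compared gave 0 of 2 in TGFα/Myc tumors against controls, 0 of 12 and 6 of 14 in TGFα/Myc off livers, 8 of 14 between tumor types, 2 of 6 for off livers against controls, 3 against 0 between 12 and 4 weeks, and 7 of 18 responses. Slide as a random block gave 1, 7, 4, 2 and 10 against 2, 12, 14, 6 and 18 for TGFα/Myc tumors against controls, TGFα/Myc off livers at 4 and 12 weeks, off livers against controls, and responses. TGFα/Myc tumors against controls gave 1 with the mean of all kept probes or all 34 arrays and 5 without the 3 arrays in doubt, which were chosen after seeing the data. TGFα/Myc off 12 weeks livers gave 8 with the mean of all kept probes. Off livers against controls gave 3 with the Agilent log ratio or the sample channel alone and 11 without the 3 arrays. The sample channel alone gave 1 call between 12 and 4 weeks, and responses gave 11 with the Agilent log ratio and 10 with the series matrix values. With the replicate block the count between 12 and 4 weeks was 1, and other counts stayed within 1.5 times. Leaving out single arrays gave 13 to 16 calls in Myc tumors against controls, 1 to 2 in TGFα/Myc tumors against controls, 12 to 18 in Myc off livers at either time, 8 to 11 and 6 to 12 in TGFα/Myc off livers, 9 to 17 between tumor types, 1 to 9 for off livers against controls and 9 to 21 responses. The split into higher and lower was 5 and 13 without background subtraction in Myc off 4 weeks livers (7 and 10 in the report), and 8 and 11 with the sample channel alone in Myc off 12 weeks livers (5 and 11). In TGFα/Myc off 4 weeks livers it was 4 and 5 with the Agilent log ratio and 4 and 7 with the series matrix values (3 and 9), and in TGFα/Myc off 12 weeks livers 3 and 10, and 2 and 12 (0 and 14). The series matrix values shifted the median of all genes by up to 0.31 (TGFα/Myc off 4 weeks livers). The cause of these changes was not tested, apart from the fewer samples or batches left.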
